A study of Mus musculus with 16 samples.

Results

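The odorant receptor genes Olfr987 to Olfr1160 form a long array of neighbouring genes on mouse chromosome 2. They were taken as every gene whose symbol in the array's annotation is Olfr with a number no lower than that of Olfr987 and no higher than that of Olfr1160. This gave 118 genes, of which 117 are annotated as protein coding and 1, Olfr1077-ps1, as a transcribed pseudogene, out of 1091 odorant receptors and 19505 genes measured. All 118 lie on chromosome 2, and their numbers follow their order along it. Of the 174 numbers in the range, 56 had no gene among those measured. The receptors used to mark the group, Olfr1022, Olfr1034 and Olfr1093, were all measured.

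Odorant receptors are G protein-coupled receptors that detect volatile molecules at the cilia of olfactory sensory neurons. Each mature neuron chooses a single receptor allele and silences the others, so a receptor's transcript in a tissue or a sorted fraction comes from the small set of neurons that chose it. Receptor choice depends on homeodomain factors such as Lhx2 and Emx2 and on early B-cell factors (Ebf), and the receptor that a neuron has chosen sets which odors can activate it.

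The animals were 24 S100a5-tauGFP mice of both sexes on the C57BL/6 background, 7 to 12 weeks old, in which a green fluorescent reporter marks cells that transcribe S100a5, an activity-dependent gene of olfactory sensory neurons. The assay, named the Kentucky assay in the labels, asks which receptors' neurons respond to an odor in the living animal. Each mouse spent 40 h alone in a chamber under a flow of clean air (3.1 L/min), and from 26 h on received 10 s pulses every 20 min of whiskey lactone (odor), an aroma compound of oak wood, or of filtered air (vehicle). Cells of 3 mice were pooled, and fluorescence sorting parted each of the 4 odor and 4 vehicle pools into 2 fractions. The groups were thus odor arrays titled GFP+, odor arrays titled GFP-, vehicle arrays titled GFP+ and vehicle arrays titled GFP-, with 4 arrays each. All mice carried the reporter. Each array is a pool of animals, so the spread between replicates is the spread between pools and not between mice.

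The sort labels and the gene behind the reporter have to be read together. On all 16 arrays the title and the cell type field give opposite names to the fraction. S100a5 had a log2 signal of 15.24 ± 0.30 in odor arrays titled GFP+ against 16.58 ± 0.13 in odor arrays titled GFP-, and of 15.28 ± 0.27 against 16.51 ± 0.19 in vehicle arrays (SD, n = 4), so it was lower in the arrays titled GFP+ (log2 differences -1.34 ± 0.09 and -1.23 ± 0.09, SE; limma, adjusted p = 2.07e-07 and 4.78e-07). Fractions are called by their titles as labels only, and a fraction difference is titled GFP+ minus titled GFP-. S100a5, the gene behind the reporter, was higher in the arrays titled GFP-, whose cell type field gives the opposite name. A rise in arrays titled GFP+ is thus not to be read as a rise in the fraction with more S100a5. Under the cell type field each fraction difference changes sign. The median signal of all genes lay between 6.62 and 7.13 on the arrays, and the median of the negative control features, used as background, between 4.98 and 5.59. Between 86 and 100 of the 118 receptors (72.9 to 84.7%) lay above the control median on an array. In all, 111 did so on at least 1 array, and 7 (Olfr1023, Olfr1053, Olfr1061, Olfr1066, Olfr1077-ps1, Olfr1141 and Olfr1145) were at or below it on all 16. With arrays, the number of arrays limits the precision.

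The contrast of the fractions within odor pools compares the RNA of these receptors between the sorted fractions after exposure to whiskey lactone. Most receptors of Olfr987 to Olfr1160 were lower in the arrays titled GFP+, and a smaller set was higher. Of the 118 receptors, 71 (60.2%) fell and 17 (14.4%) rose (limma, pool as block, Benjamini-Hochberg adjustment over all genes, threshold 0.05), against 14.7% of all genes that fell and 12.8% that rose. The share that rose was near that of all genes, while 24.2% of other odorant receptors rose. Together 74.6% of the receptors were called, against 27.5% of all genes. Because the arrays measured bulk RNA, fewer neurons that chose a receptor and less receptor RNA per neuron cannot be told apart. The differences ran from -4.69 for Olfr1093 to 6.40 for Olfr1042, with a median of -1.52, where the median of all genes was -0.15. Differences of 8-fold or more were called higher for 10 receptors and lower for 13, against 574 (2.94%) and 90 (0.461%) of all 19505 genes and 108 and 76 of 973 other odorant receptors. The sign was the same in all 4 pools for 92 receptors, 75 lower and 17 higher, and the medians of the single pools were -1.51, -1.24, -1.58 and -1.22. No share over all genes is given for this count of signs, so it only describes these receptors.

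In vehicle pools the same contrast compares the fractions without added odor. There 69 receptors (58.5%) fell and 16 (13.6%) rose in the arrays titled GFP+, against 13.6% and 12.3% of all genes, and 72.0% of the receptors were called against 26.0% of all genes. The share that rose was again near that of all genes, while 25.1% of other odorant receptors rose. The differences ran from -5.06 for Olfr1093 to 6.27 for Olfr1042, with a median of -1.26 (all genes -0.14). Called differences of 8-fold or more numbered 11 higher and 14 lower, against 523 (2.68%) and 82 (0.420%) of all genes and 110 and 66 of other odorant receptors. The sign was the same in all 4 pools for 89 receptors, 71 lower and 18 higher, again without a share over all genes. The single pools had medians of -1.40, -1.07, -0.84 and -1.76. The receptor medians depended on the scaling of the arrays, which also moved the median of all genes. Centring each array on its median gave -1.89 in odor and -1.62 in vehicle pools (all genes -0.53 and -0.51), and centring on genes of mature neurons gave -1.24 and -0.94 (all genes 0.13 and 0.17).

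**Figure D1:**
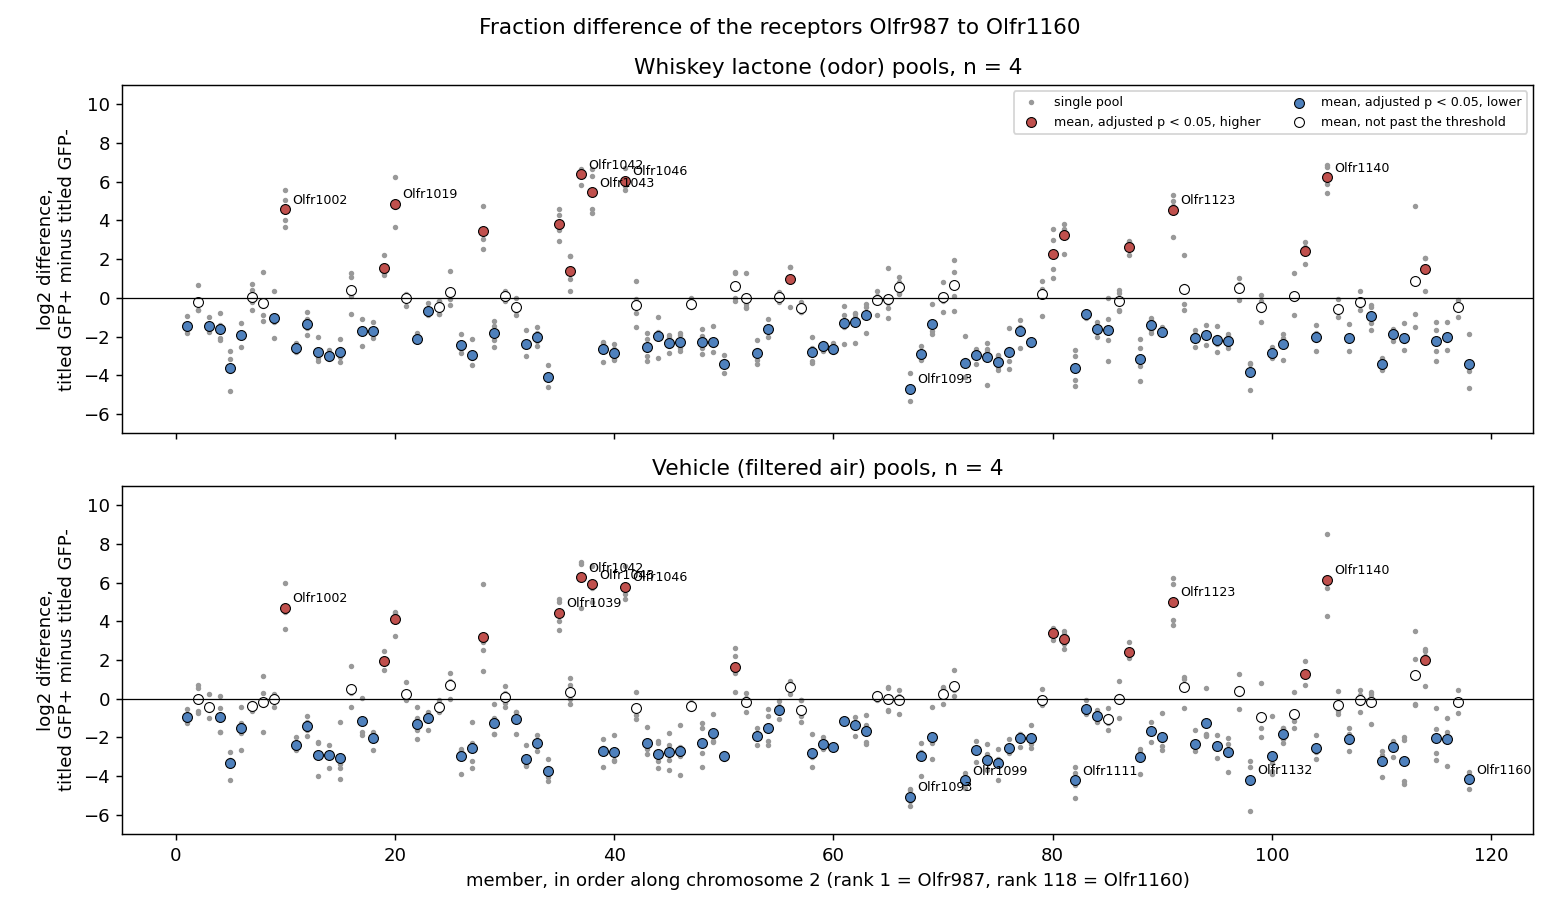
Log2 difference, titled GFP+ minus titled GFP-, of the 118 receptors in their order along chromosome 2, in odor pools (upper panel) and vehicle pools (lower panel). Large circles are means of 4 pools, filled where the adjusted p is below 0.05, and small grey points are single pools. Most points lie below 0 in both panels, 17 and 16 receptors are called higher, and Olfr1042, Olfr1043 and Olfr1046 lie high close together.

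The other 973 odorant receptors were also called often in both directions, but their median lay nearer 0. In odor pools 235 of them rose and 460 fell (71.4% called, median -0.59), and in vehicle pools 244 rose and 450 fell (71.3%, median -0.54). The next receptors along the same chromosome, Olfr1161 to Olfr1318, had 35 of 123 higher and 47 lower in odor pools (median -0.22) and 40 higher and 42 lower in vehicle pools (median -0.12). The class I receptors Olfr543 to Olfr692, the branch that resembles the receptors of fish, had 18 of 112 higher and 54 lower in odor pools (median -0.67) and 17 higher and 61 lower in vehicle pools (median -0.81). These medians describe lists of genes measured on the same arrays, and the difference between the lists was not tested.

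**Figure D2:**
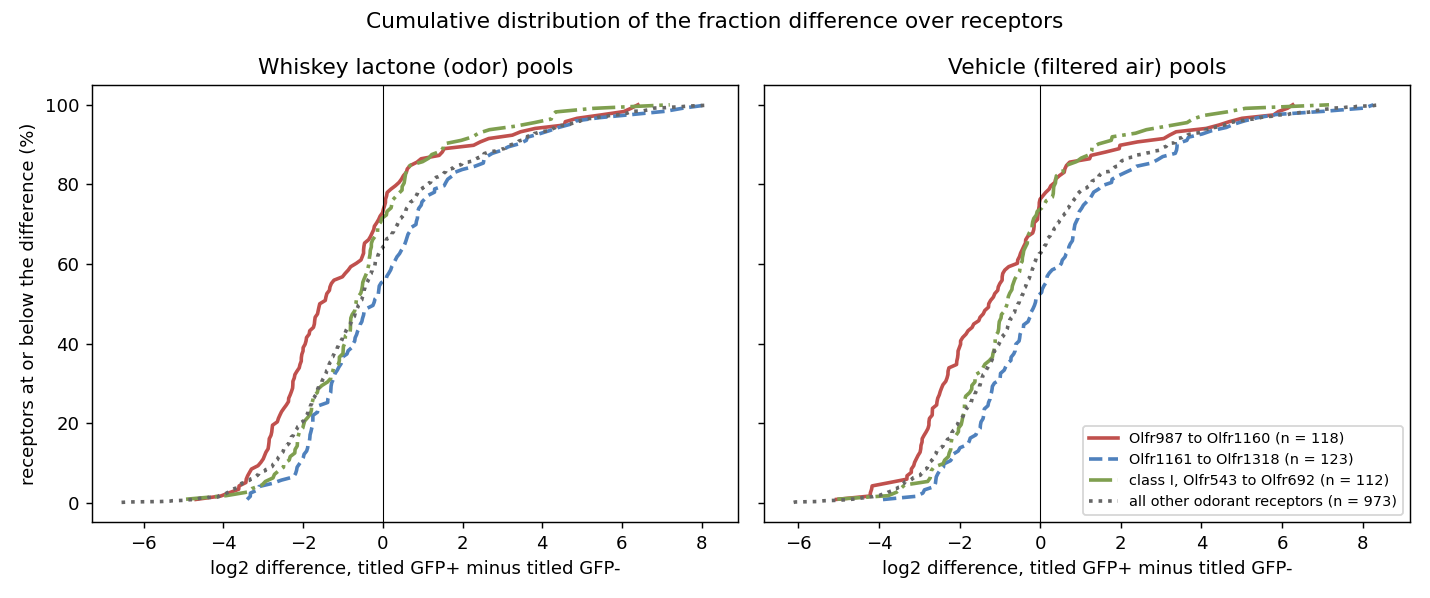
Cumulative share of receptors (percent) at or below each log2 fraction difference, in odor pools (left) and vehicle pools (right), for Olfr987 to Olfr1160, Olfr1161 to Olfr1318, class I receptors and all 973 other odorant receptors. The curve of Olfr987 to Olfr1160 lies to the left of that of all other receptors over most of the range below 0, with medians of -1.52 against -0.59 in odor pools and -1.26 against -0.54 in vehicle pools.

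The odor and vehicle pools held different mice, so the fraction contrast was measured in both. In both treatments 15 receptors rose in the arrays titled GFP+: Olfr1002, Olfr1018, Olfr1019, Olfr1030, Olfr1039, Olfr1042, Olfr1043, Olfr1046, Olfr1109, Olfr1110, Olfr1118, Olfr1123, Olfr1137, Olfr1140 and Olfr1155. In both, 67 fell, and no receptor was called in opposite directions. No share over all genes is given for counts taken over both treatments, so they only describe these receptors. Of the 67, Olfr1023 was at or below the control median on all 16 arrays. Some of the 67 also lost a call under mature neuron centring. Among them were Olfr1023 and Olfr1086 in odor pools (limma, adjusted p = 0.193 and 0.149) and Olfr993 and Olfr1112 in vehicle pools (adjusted p = 0.176 and 0.28). In neither treatment were 27 receptors called, 5 of which were at or below the control median on all 16 arrays. In odor pools alone Olfr1040 and Olfr1076 passed the test as higher and Olfr992, Olfr1000, Olfr1115 and Olfr1148 as lower. In vehicle pools alone Olfr1058 passed as higher and Olfr1033 and Olfr1066 as lower. None of these 9 passed a test of the difference between treatments, and 7 of these calls depended on the scaling. Centring on genes of mature neurons ended the odor calls of Olfr1000 (adjusted p = 0.0986) and Olfr1148 (adjusted p = 0.117) and the vehicle call of Olfr1066 (adjusted p = 0.389). Median centring ended the odor call of Olfr1076 (adjusted p = 0.0766). It also called Olfr992 and Olfr1115 in vehicle pools (adjusted p = 0.00558 and 0.00742) and Olfr1033 in odor pools (adjusted p = 0.00326), and so in both treatments.

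Olfr1042 had the largest fitted difference in both treatments. Its log2 signal was 10.48, 10.62, 11.03 and 11.20 in odor arrays titled GFP+ (replicates 1 to 4), against 3.95, 4.06, 5.18 and 4.54 in odor arrays titled GFP-. In vehicle arrays titled GFP+ it was 11.24, 10.22, 11.45 and 11.37, against 4.91, 5.52, 4.49 and 4.30 in vehicle arrays titled GFP-. The fractions did not overlap in either treatment, and the titled GFP- values lay around the background, at or below the control median on 3 of 4 odor arrays and on all 4 vehicle arrays. The receptor was higher in odor arrays titled GFP+ (fitted difference 6.40 ± 0.31, SE; limma, adjusted p = 6.75e-09) and at least 47.1-fold higher in vehicle arrays titled GFP+ (fitted 6.27 ± 0.31, adjusted p = 8.27e-09). A bound is given wherever a fraction was at or below the control median on all its arrays of a treatment, and where this held for 2 or 3 of the 4 arrays the fitted log2 difference stands without a fold.

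Olfr1043 is the next gene after Olfr1042, and Olfr1046 lies 3 genes further on. Olfr1046 had log2 signals of 12.25, 12.16, 11.43 and 12.49 in odor arrays titled GFP+ against 6.46, 6.60, 5.30 and 5.79 in odor arrays titled GFP-. In vehicle arrays the signals of Olfr1046 were 12.39, 11.89, 12.08 and 12.12 titled GFP+ against 6.62, 5.06, 6.91 and 6.73 titled GFP-. The fractions were far apart in every pool, 66.0-fold in odor (6.05 ± 0.25, adjusted p = 1.22e-09) and 55.3-fold in vehicle pools (5.79 ± 0.25, adjusted p = 1.92e-09), where 1 of the 4 arrays titled GFP- was at or below the control median. Olfr1043 had 10.93, 10.62, 10.93 and 11.31 in odor arrays titled GFP+ against 6.57, 6.04, 4.61 and 4.68 in odor arrays titled GFP- (fitted difference 5.47 ± 0.37, adjusted p = 1.28e-07). In vehicle arrays Olfr1043 had 11.06, 11.19, 11.59 and 11.27 titled GFP+ against 5.34, 6.19, 4.72 and 5.23 titled GFP- (fitted difference 5.91 ± 0.37, adjusted p = 6.73e-08). Its arrays titled GFP- lay at or below the control median on 2 of 4 odor and 3 of 4 vehicle arrays. Between Olfr1043 and Olfr1046 the genes Olfr1044 and Olfr1045 went the other way, and both fell in both treatments. Olfr1045, for example, was 7.21-fold lower in odor arrays titled GFP+ (-2.85 ± 0.22, adjusted p = 4.67e-07) and 6.78-fold lower in vehicle arrays titled GFP+ (-2.76 ± 0.22, adjusted p = 6.87e-07).

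Further along the chromosome Olfr1140 showed the second largest rise. Odor arrays titled GFP+ gave 12.49, 12.47, 12.24 and 12.91 against 7.07, 6.58, 5.50 and 6.02 in odor arrays titled GFP-, and vehicle arrays titled GFP+ gave 13.65, 13.10, 13.44 and 12.40 against 9.37, 7.38, 4.95 and 6.33 in vehicle arrays titled GFP-. The fractions were apart in every pool, but the vehicle arrays titled GFP- were spread widely, from below the control median in replicate 3 to 9.37 in replicate 1. Olfr1140 was 75.2-fold higher in odor (6.23 ± 0.47, adjusted p = 4.05e-07) and 70.5-fold higher in vehicle arrays titled GFP+ (6.14 ± 0.47, adjusted p = 4.88e-07). Olfr1123 had 13.48, 13.66, 13.46 and 13.72 in odor arrays titled GFP+ against 10.36, 8.66, 8.14 and 8.95 titled GFP-, and 13.51, 13.88, 13.95 and 13.35 in vehicle arrays titled GFP+ against 9.70, 7.94, 7.71 and 9.31 titled GFP-. Its level in the arrays titled GFP+ varied by less than 1 log2 unit within a treatment, and both fractions were above background (4.55 ± 0.40 in odor and 5.01 ± 0.40 in vehicle pools, adjusted p = 1.60e-06 and 7.03e-07).

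Olfr1019, known in mice as a receptor for trimethylthiazoline, a component of fox odor, rose in both treatments. It had log2 signals of 12.54, 12.74, 12.87 and 13.54 in odor arrays titled GFP+ against 7.66, 8.05, 6.60 and 9.89 titled GFP-, and of 12.97, 13.02, 13.24 and 12.88 in vehicle arrays titled GFP+ against 8.62, 8.60, 8.77 and 9.64 titled GFP-. Replicate 4 was the highest titled GFP- array in both treatments, and the fractions did not overlap. The receptor was 29.3-fold higher in odor (4.87 ± 0.31, adjusted p = 9.0e-08) and 17.4-fold higher in vehicle arrays titled GFP+ (4.12 ± 0.31, adjusted p = 4.57e-07). Olfr1002 was at or below the control median on all 8 arrays titled GFP- and was at least 8.64-fold higher in odor and at least 9.98-fold higher in vehicle arrays titled GFP+ (fitted 4.58 ± 0.36 and 4.69 ± 0.36). Olfr1039 had 8.41, 8.88, 9.16 and 10.09 in odor arrays titled GFP+ and 10.57, 10.26, 10.24 and 10.21 in vehicle arrays titled GFP+, with differences of 3.82 ± 0.30 and 4.43 ± 0.30 from the titled GFP- fraction.

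The other receptors that rose in both treatments did so by less. Olfr1030 had differences of 3.45 ± 0.53 in odor and 3.21 ± 0.53 in vehicle pools, with vehicle arrays titled GFP- spread from 6.71 to 11.26. Olfr1110 differed by 3.25 ± 0.22 and 3.06 ± 0.22, and its neighbour Olfr1109 by 2.28 ± 0.34 in odor pools and by at least 5.67-fold in vehicle pools. Both rose, while the next gene, Olfr1111, fell. Olfr1118 (2.66 ± 0.19 and 2.41 ± 0.19), Olfr1137 (2.44 ± 0.23 and 1.26 ± 0.23), Olfr1018 (1.54 ± 0.18 and 1.96 ± 0.18) and Olfr1155 (1.49 ± 0.31 and 1.98 ± 0.31) completed the set, and all 4 were above the control median on all 8 arrays titled GFP+. Of the receptors called higher in 1 treatment, Olfr1040, Olfr1076 and Olfr1058 had signals near background, and Olfr1040 exceeded the control median on 1 odor array titled GFP+ only.

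**Figure D3:**
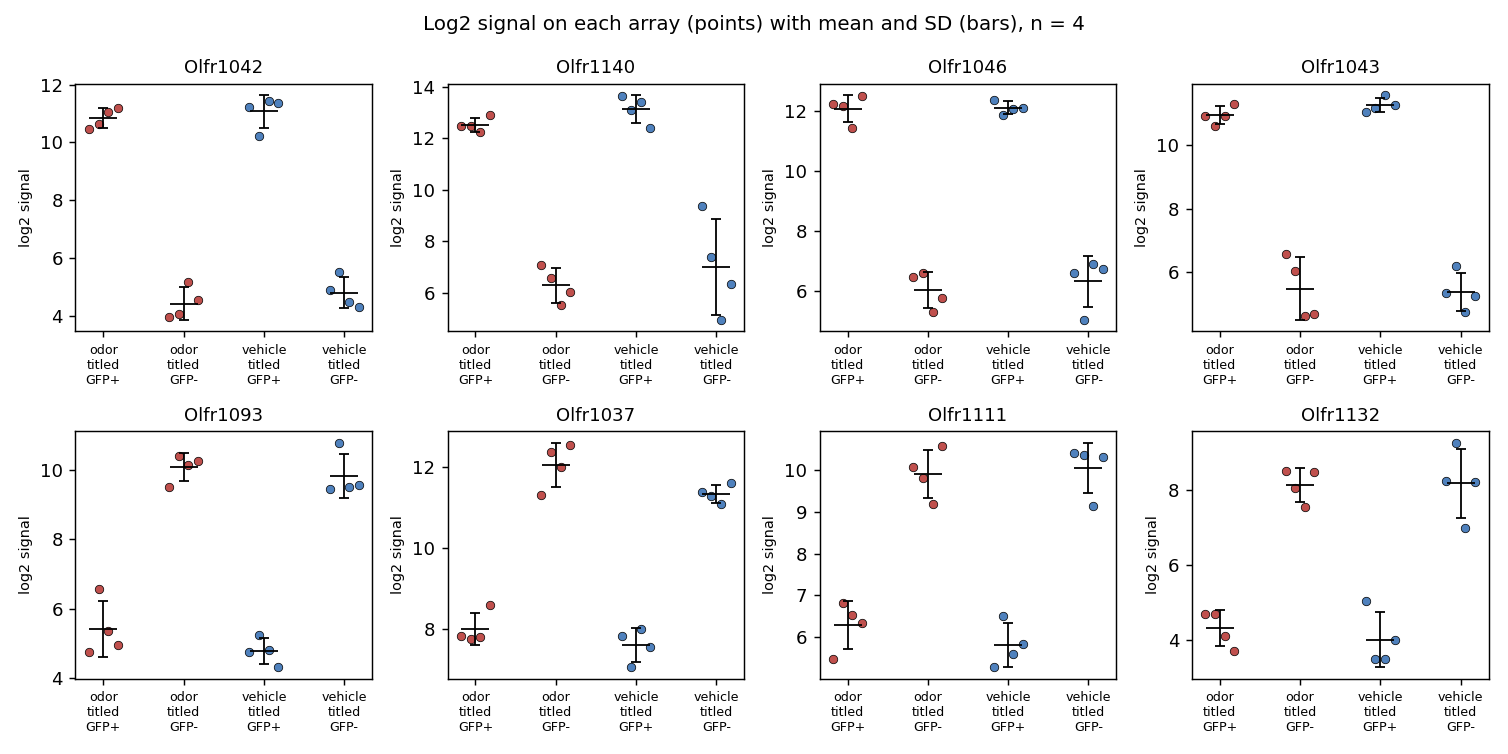
Log2 signal of 8 receptors on each of the 16 arrays, in odor arrays titled GFP+, odor arrays titled GFP-, vehicle arrays titled GFP+ and vehicle arrays titled GFP-. Points are arrays, and bars give the mean and SD of 4 pools. The top row (Olfr1042, Olfr1140, Olfr1046 and Olfr1043) is high in the titled GFP+ fraction and the bottom row (Olfr1093, Olfr1037, Olfr1111 and Olfr1132) low, with no overlap between fractions within a treatment.

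Among the receptors that fell, Olfr1093 had the most negative difference in both treatments. Its log2 signal was 4.73, 6.55, 5.36 and 4.96 in odor arrays titled GFP+ against 9.52, 10.42, 10.15 and 10.26 in odor arrays titled GFP-. In vehicle arrays titled GFP+ the signal was 4.74, 5.24, 4.82 and 4.30, against 9.45, 10.79, 9.50 and 9.58 in vehicle arrays titled GFP-. The arrays titled GFP+ lay at or near background, at or below the control median on 2 of 4 odor and all 4 vehicle arrays, and the fractions were apart in every pool. Olfr1093 was lower in odor arrays titled GFP+ (fitted difference -4.69 ± 0.23, adjusted p = 7.03e-09) and at least 22.6-fold lower in vehicle arrays titled GFP+ (fitted -5.06 ± 0.23, adjusted p = 3.54e-09).

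Olfr1037 fell while remaining well above background in both fractions. It had 7.83, 7.75, 7.81 and 8.59 in odor arrays titled GFP+ against 11.31, 12.37, 12.01 and 12.55 titled GFP-, and 7.83, 7.05, 7.99 and 7.57 in vehicle arrays titled GFP+ against 11.39, 11.28, 11.09 and 11.62 titled GFP-. No array titled GFP+ came within 2 log2 units of an array titled GFP- of the same treatment. Olfr1037 was 16.8-fold lower in odor (-4.07 ± 0.20, adjusted p = 7.80e-09) and 13.3-fold lower in vehicle arrays titled GFP+ (-3.74 ± 0.20, adjusted p = 1.91e-08). Olfr1132 was at or below the control median on all 8 arrays titled GFP+ and was at least 7.93-fold lower there in odor and at least 7.22-fold lower in vehicle pools. Olfr1111 had 5.49, 6.82, 6.52 and 6.34 in odor arrays titled GFP+ against 10.06, 9.81, 9.19 and 10.56 titled GFP-, with differences of -3.61 ± 0.31 in odor and -4.22 ± 0.31 in vehicle pools.

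The remaining receptors with large falls had differences in odor and vehicle pools of -3.62 and -3.31 (Olfr994), -3.44 and -4.17 (Olfr1160), -3.43 and -3.20 (Olfr1151), -3.39 and -2.93 (Olfr1057), -3.35 and -4.21 (Olfr1099), -3.30 and -3.31 (Olfr1102) and -2.05 and -3.20 (Olfr1153). Their standard errors were between 0.16 and 0.38, and all passed the test in both treatments. Olfr1034 fell by 5.15-fold in odor arrays titled GFP+ (-2.36 ± 0.20, adjusted p = 1.34e-06) and by 8.68-fold in vehicle arrays titled GFP+ (-3.12 ± 0.20, adjusted p = 1.07e-07). Olfr1022 was 4.29-fold lower in odor arrays titled GFP+ (-2.10 ± 0.24, adjusted p = 2.07e-05) and lower in vehicle arrays titled GFP+, 3 of which were at or below the control median (fitted difference -1.28 ± 0.24, adjusted p = 0.00152).

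Along the chromosome, receptors of both directions were interleaved. Of the 117 pairs of adjacent receptors, 64 had both members called in odor pools, and 50 of these pairs (78.1%) went the same way, where 68.5% of all possible pairs of called receptors did. In vehicle pools 47 of 61 such pairs (77.0%) went the same way, against 69.1% of all possible pairs. The correlation of neighbours' differences was weak, r = 0.133 over 117 adjacent pairs in each treatment, as a description of genes measured on the same arrays. The longest run of receptors that all fell held 7, from Olfr1099 to Olfr1106, in both treatments. Olfr987 to Olfr1045 held 8 higher and 23 lower of 40 receptors in odor pools and 7 higher and 22 lower in vehicle pools (medians -1.38 and -0.97). Olfr1046 to Olfr1107 held only 2 higher among 39 in either treatment, with 25 and 26 lower (medians -1.70 and -1.93), and Olfr1109 to Olfr1160 held 7 higher in both, with 23 and 21 lower of 39 (medians -1.62 and -1.04).

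Stretches of 250 bases upstream of the annotated start were available for 92 of the 118 receptors (RefSeq, GRCm38.p6). In 66 of the 92 (71.7%) the annotated start is an ATG, so the window then precedes the coding start and need not be the promoter (73.0% of other odorant receptors and 6.75% of all genes). The following 5 windows were picked from those of named receptors with large differences whose annotated start is not an ATG. The windows of Olfr1030, which rose, and Olfr1102, which fell, also qualified and are not shown. That of Olfr1030 holds TAATTA and TAATTG, and that of Olfr1102 holds TAATTG, counting both strands. Olfr1140 (chr2:87745911-87746160, plus strand) and Olfr1110 (chr2:87140234-87140483, minus strand) rose in the arrays titled GFP+. Olfr1037 (chr2:86085855-86086104, minus strand), Olfr1093 (chr2:86782295-86782544, plus strand) and Olfr1034 (chr2:86046194-86046443, plus strand) fell. Each is written 5′ to 3′ on the gene's strand and ends at the base before the start, and capitals mark any match to the motifs named after the sequences.
Olfr1140: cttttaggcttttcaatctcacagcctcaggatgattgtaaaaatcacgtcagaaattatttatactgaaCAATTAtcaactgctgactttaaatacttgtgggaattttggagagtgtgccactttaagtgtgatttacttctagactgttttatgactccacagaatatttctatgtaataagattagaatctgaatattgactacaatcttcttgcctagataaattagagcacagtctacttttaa
Olfr1110: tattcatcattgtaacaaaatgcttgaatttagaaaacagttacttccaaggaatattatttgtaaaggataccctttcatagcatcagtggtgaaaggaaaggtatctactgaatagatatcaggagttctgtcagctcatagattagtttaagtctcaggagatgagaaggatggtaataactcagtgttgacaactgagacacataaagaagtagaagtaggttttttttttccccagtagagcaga
Olfr1037: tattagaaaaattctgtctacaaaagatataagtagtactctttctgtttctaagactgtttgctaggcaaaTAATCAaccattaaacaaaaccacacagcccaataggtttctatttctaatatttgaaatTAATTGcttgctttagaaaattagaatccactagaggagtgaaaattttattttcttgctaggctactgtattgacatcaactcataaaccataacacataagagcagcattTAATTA
Olfr1093: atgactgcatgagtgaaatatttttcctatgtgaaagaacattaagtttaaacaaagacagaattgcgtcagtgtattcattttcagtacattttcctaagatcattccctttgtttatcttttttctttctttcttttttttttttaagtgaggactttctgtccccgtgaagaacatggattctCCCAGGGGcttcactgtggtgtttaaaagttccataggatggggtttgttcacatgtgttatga
Olfr1034: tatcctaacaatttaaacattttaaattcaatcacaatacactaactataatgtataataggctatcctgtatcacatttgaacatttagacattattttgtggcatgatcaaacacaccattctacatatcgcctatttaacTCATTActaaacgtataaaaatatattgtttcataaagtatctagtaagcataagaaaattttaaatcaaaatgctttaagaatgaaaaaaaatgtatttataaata

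The motifs searched were 4 homeodomain sites of the kind that Lhx2 and Emx2 bind, namely the site TAATTA, the site TAATTG, the site TAATGA and the site TAATCA, and the core CCCNNGGG of the early B-cell factor site, on both strands. The homeodomain sites share their first 4 letters. At least 1 homeodomain site was present in 67 of the 92 windows (72.8%), against 58.5% of 833 other odorant receptors and 23.4% of 27025 windows of all genes. It was found in 5 of 9 windows of receptors that rose in both treatments (55.6%), in 43 of 54 of those that fell in both (79.6%) and in 14 of 22 of those called in neither (63.6%). The AT content of the windows also differed between these sets and was 70.7% for all 92 windows, 67.3% for those that rose, 71.3% for those that fell, 71.0% for those called in neither, 64.7% for other receptors and 47.0% for all genes, and its part in the shares was not tested. CCCNNGGG was present in 2 of 92 windows (2.17%), 1 of them that of Olfr1093, against 2.64% of other receptors and 11.7% of all genes. The longer form of the site, the same core with a T before it and an A after it, was also searched and was in 0 of 92 windows, against 0.48% of other receptors and 0.788% of all genes. A match is a stretch of letters and not a known binding site.

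The regulators of receptor choice moved little between the fractions. Of 13 measured, 4 fell and 1 rose in the arrays titled GFP+ in each treatment (medians -0.12 in odor and -0.11 in vehicle pools). Cbx5, a heterochromatin protein, rose by 0.64 ± 0.13 and 0.54 ± 0.13 (adjusted p = 0.00237 and 0.00801). Atf5, a factor of the receptor feedback signal, fell by 0.35 and 0.24 on the log2 scale, Ebf2 fell by 0.33 and 0.29, and Emx2 fell by 0.32 and 0.46. The differences of Lhx2 were -0.12 ± 0.06 and 0.00 ± 0.06 and did not pass the test (adjusted p = 0.147 and 0.996). Genes of mature olfactory sensory neurons also lay slightly lower in arrays titled GFP+, with 8 of 15 lower and 0 higher in each treatment and medians of -0.28 and -0.33. Their mean log2 signal was 15.51 to 15.85 in odor arrays titled GFP+ against 15.86 to 15.98 titled GFP-, and 15.59 to 15.71 against 15.93 to 15.98 in vehicle arrays. Omp, the olfactory marker protein, differed by -0.14 ± 0.05 and -0.06 ± 0.05 (adjusted p = 0.0667 and 0.390).

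Markers of other cells moved with the fractions as well. All 11 neutrophil genes were higher in arrays titled GFP+ in both treatments (median difference 8.37 in each), with mean signals of 12.81 to 15.04 in odor arrays titled GFP+ against 5.63 to 6.71 titled GFP-, and 13.3 to 14.4 against 5.83 to 6.93 in vehicle arrays. Macrophage genes were higher for 8 of 9 in odor and 9 of 9 in vehicle pools, microvillar cell genes for 9 of 9 in both, sustentacular genes for 6 of 7 in both and erythroid genes for 3 of 3 in both. Immature neuron genes were higher for 7 of 10 in odor and 6 of 10 in vehicle pools, with mean signals of at least 10.7 on every array titled GFP+ against at most 9.15 on odor and 9.23 on vehicle arrays titled GFP-. Progenitor genes were higher for 5 of 8 in both, with 1 lower in odor pools, and respiratory ciliated cell genes were lower for 2 and 3 of 6. The part of these cells in the receptor differences was not tested. After centring on the genes of mature neurons, 18 receptors rose and 67 fell in odor pools, and 18 rose and 64 fell in vehicle pools, where 23.3% of all genes were called in odor and 24.9% in vehicle pools.

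The difference of the fraction contrasts, odor minus vehicle, asks whether the fraction difference of a receptor's RNA changed with whiskey lactone. None of the 118 receptors passed the threshold (limma, smallest adjusted p = 0.999), and over all genes 1 was called (0.00513%), a receptor outside this stretch. At an unadjusted p below 0.05 there were 13 of the 118 receptors, against 3.27% of all genes and 7.09% of other odorant receptors. With the replicate number as a further block, again 0 were called. The differences ran from -1.10 to 1.18 with a median of -0.00060.

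Olfr1137 had the smallest unadjusted p. Its fraction difference was 2.89, 2.64, 2.49 and 1.75 in the odor pools against 1.18, 1.95, 0.69 and 1.21 in the vehicle pools. The lowest odor pool, replicate 4, lay below the highest vehicle pool, replicate 2, so the treatments overlapped. The estimate was 1.18 ± 0.33 (limma, 95% interval 0.47 to 1.89, unadjusted p = 0.00326). Olfr1062 had differences of -3.19, -3.40, -2.16 and -2.68 in odor pools against -1.51, -2.38, -1.97 and -1.84 in vehicle pools, with an estimate of -0.93 ± 0.29. The estimates of the others named were -0.98 (Olfr992), -0.74 (Olfr1113), 0.66 (Olfr1152), -0.52 (Olfr987), 1.05 (Olfr1040) and -0.98 (Olfr1000). Olfr1034, Olfr1022 and Olfr1093 had 0.75 ± 0.29, -0.81 ± 0.34 and 0.37 ± 0.33.

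Odor and vehicle pools were then compared within each fraction, which asks whether the level of a receptor changed with exposure. In arrays titled GFP+ none of the 118 receptors passed (limma, pool as random block, smallest adjusted p = 0.329 for Olfr1034), and 1 of all genes did (0.00513%). With the replicate number as a block again 0 of the 118 passed. At an unadjusted p below 0.05 there were 26 receptors, 13 with odor higher and 13 with odor lower, against 4.88% of all genes, 9.04% of other odorant receptors, 16.3% of Olfr1161 to Olfr1318 and 4.46% of class I receptors. The differences ran from -1.44 for Olfr1026 to 1.68 for Olfr1022, with a median of -0.055. The odor and vehicle arrays did not overlap for 10 receptors, 3 with odor above (Olfr1034, Olfr1036 and Olfr1118) and 7 with odor below, against 2.38% of all genes.

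In arrays titled GFP- none passed either (limma, smallest adjusted p = 0.122 for Olfr1022), and 0 of all genes did. With the replicate number as a block 1 receptor, Olfr1022, was called (adjusted p = 0.0236), as were 15 of all genes (0.0769%). At an unadjusted p below 0.05 there were 22 receptors (18.6%), 10 with odor higher and 12 with odor lower, against 5.88% of all genes, 7.61% of other odorant receptors, 11.4% of Olfr1161 to Olfr1318 and 3.57% of class I receptors. The odor and vehicle arrays did not overlap for 6 receptors, 3 with odor above (Olfr1022, Olfr1087 and Olfr1122) and 3 with odor below (Olfr1024, Olfr1079 and Olfr1121), against 4.45% of all genes. Both fractions come from the same pools of mice, so the comparisons in the 2 fractions are not independent of each other.

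Olfr1022 had the largest difference between odor and vehicle in both fractions. Its log2 signal in arrays titled GFP- was 9.04, 9.58, 8.61 and 7.82 in odor pools against 6.07, 5.70, 6.45 and 6.85 in vehicle pools. Every odor array was above every vehicle array, with odor replicate 4 the lowest of the odor arrays. The level was 5.63-fold higher with odor (2.49 ± 0.42, adjusted p = 0.122), which did not pass the threshold. It passed with the replicate block, as given above, and without odor replicate 4 (2.81, adjusted p = 0.0163), where 2 of all genes were called (0.0103%). Leaving out the lowest odor array had to enlarge the difference, so that pass adds no support. In arrays titled GFP+ the signal was 6.83, 7.79, 6.40 and 5.63 in odor pools against 4.43, 4.69, 6.05 and 4.77 in vehicle pools. There odor replicate 4 lay below vehicle replicate 3, and 3 of the 4 vehicle arrays were at or below the control median. The fitted difference was 1.68 ± 0.42 (adjusted p = 0.702).

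Olfr1034 had 10.46, 10.68, 9.38 and 9.79 in odor arrays titled GFP+ against 8.50, 8.65, 8.81 and 8.89 in vehicle arrays titled GFP+. All odor arrays lay above all vehicle arrays, by a difference of 1.37 ± 0.28 (2.58-fold, unadjusted p = 0.000137, adjusted p = 0.329). In arrays titled GFP- it had 12.13, 13.08, 11.79 and 12.76 in odor against 11.97, 12.06, 11.20 and 12.08 in vehicle pools, where odor replicate 3 lay among the vehicle arrays (0.61 ± 0.28, adjusted p = 0.848). Olfr1087 had 8.52, 8.47, 8.36 and 7.74 in odor arrays titled GFP- against 7.38, 7.11, 7.13 and 7.54 in vehicle arrays titled GFP-, again without overlap (0.98 ± 0.22, adjusted p = 0.343). In arrays titled GFP+ Olfr1087 had 7.62, 8.58, 8.39 and 8.09 in odor against 7.65, 7.26, 7.30 and 7.49 in vehicle pools, with odor replicate 1 inside the vehicle range (0.74 ± 0.22, adjusted p = 0.801).

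**Figure D4:**
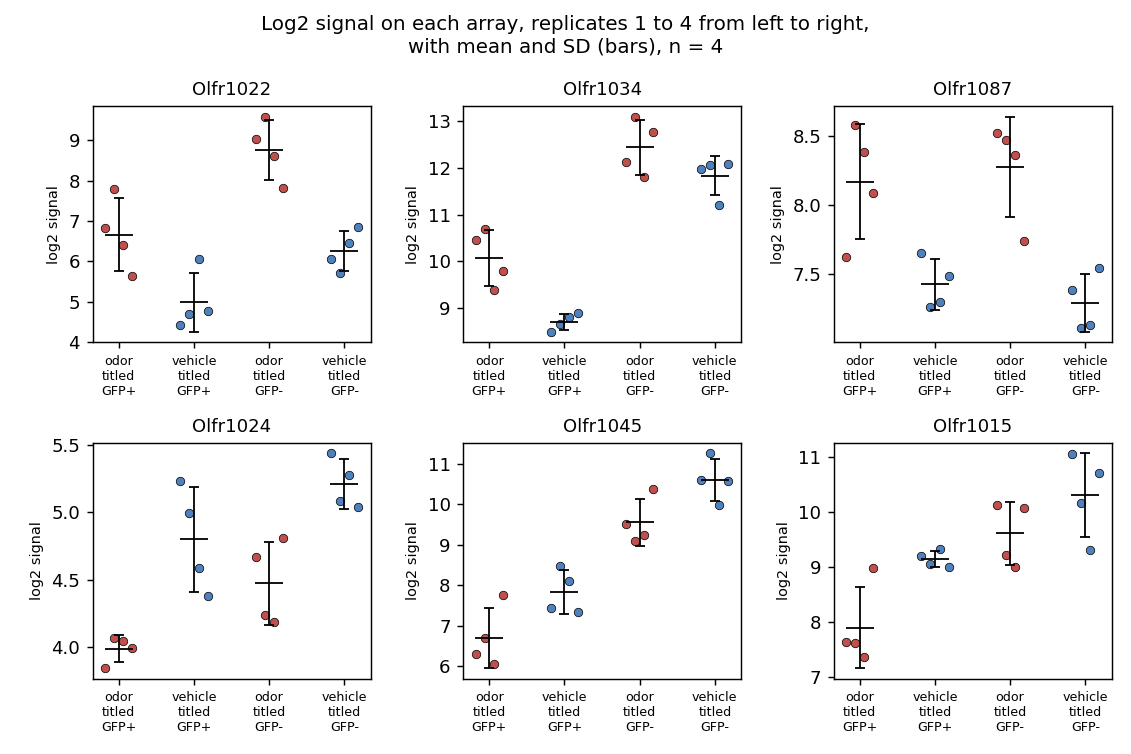
Log2 signal of Olfr1022, Olfr1034, Olfr1087, Olfr1024, Olfr1045 and Olfr1015 on each array, in odor and vehicle arrays titled GFP+ and then odor and vehicle arrays titled GFP-, with replicates 1 to 4 from left to right. Points are arrays, and bars give the mean and SD of 4 pools. In arrays titled GFP- all odor values of Olfr1022 (7.82 to 9.58) lie above all vehicle values (5.70 to 6.85), and in arrays titled GFP+ odor replicate 4 of Olfr1015 (8.98) lies at the level of the vehicle arrays.

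Other receptors lay lower with odor, also without passing the test. Olfr1015 had 7.62, 7.61, 7.36 and 8.98 in odor arrays titled GFP+ against 9.19, 9.05, 9.33 and 8.98 in vehicle arrays titled GFP+. Replicates 1 to 3 were low with odor and replicate 4 was at the vehicle level (-1.25 ± 0.36, adjusted p = 0.801). Olfr1045 had 6.30, 6.68, 6.06 and 7.75 in odor arrays titled GFP+ against 7.43, 8.47, 8.10 and 7.35 in vehicle arrays titled GFP+, where replicate 4 was again the highest odor array (-1.14 ± 0.35, adjusted p = 0.877). In arrays titled GFP- it had 9.50, 9.08, 9.23 and 10.38 in odor against 10.59, 11.25, 9.98 and 10.58 in vehicle pools (-1.05 ± 0.35, adjusted p = 0.720). Among the 26 receptors with an unadjusted p below 0.05 in arrays titled GFP+, the odor array nearest to the vehicle mean was replicate 1 for 4, replicate 2 for 4, replicate 3 for 9 and replicate 4 for 9. Among the 22 in arrays titled GFP- these counts were 3, 1, 8 and 10.

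The remaining receptors named within fractions were smaller or dim. Olfr1024 differed by -0.81 ± 0.20 in the fraction titled GFP+ and by -0.73 ± 0.20 in that titled GFP-, and its odor arrays were all at or below the control median. Olfr1136 differed by 1.09 ± 0.31 and 0.20 ± 0.31, and exceeded the control median on 2 odor arrays titled GFP+ and on no vehicle array. Olfr1112 differed by 0.43 ± 0.23 and 0.73 ± 0.23, Olfr1121 by -0.50 ± 0.19 and -0.74 ± 0.19, and Olfr1138 by -0.57 ± 0.36 and -1.11 ± 0.36, in arrays titled GFP+ and titled GFP-, in that order. Olfr1093 had odor minus vehicle differences of 0.63 ± 0.35 in the fraction titled GFP+ and 0.26 ± 0.35 in that titled GFP-.

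Since each pool gave both fractions, the mean of its 2 arrays was also compared between 4 odor and 4 vehicle pools, a comparison added after the within-fraction values had been seen. None of the 118 receptors passed (limma), and 0 of all genes did. At an unadjusted p below 0.05 there were 32 receptors (27.1%), against 5.84% of all genes and 9.66% of other odorant receptors, and the median size of the difference was 0.267 against 0.174 for other receptors and 0.105 for all genes. These shares rest on genes measured in the same 8 pools, and were not tested against each other. For pool means no share is given for Olfr1161 to Olfr1318 or for class I receptors. In arrays titled GFP+ and titled GFP- their shares at an unadjusted p below 0.05 were 16.3% and 11.4% (Olfr1161 to Olfr1318) and 4.46% and 3.57% (class I). The pools did not overlap for 5 receptors with odor above (Olfr1022, Olfr1034, Olfr1087, Olfr1122 and Olfr1136) and for 2 with odor below (Olfr1024 and Olfr1121), which is 5.93% of the receptors against 3.64% of all genes. Olfr1022 had pool means of 7.94, 8.68, 7.50 and 6.72 with odor against 5.25, 5.19, 6.25 and 5.81 with vehicle (2.09 ± 0.36, adjusted p = 0.472). Olfr1034 had 11.30, 11.88, 10.59 and 11.28 with odor against 10.23, 10.36, 10.00 and 10.49 with vehicle (0.99 ± 0.22, adjusted p = 0.596), and passed with the replicate number as a block (adjusted p = 0.0353), as did 11 of all genes (0.0564%), 10 higher and 1 lower. Olfr1047 had the most negative pool difference (-1.31).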

How the data were processed

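Biotin-labelled cRNA was made from 50 to 100 ng of RNA of cells sorted from olfactory mucosa and measured on 16 Affymetrix arrays, per the labels' protocols. The authors deposited log2 signals in a single table. Per the submitters' processing notes, they used Affymetrix Expression Console. How the signals were normalized and corrected for background, and the software version, is not given in the sources used here. That the scale is log2 was read from the values.

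The platform annotation named 19572 of 28846 features. For genes with several features (67 further features) the brightest on average was kept, which left 19505 genes, and dim genes stayed in. Background was the median of 5222 negative control features on each array. Several receptors of this family are alike in sequence, and cross-hybridisation between them was not tested.

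Groups and replicate numbers came from the sample titles. All genes were tested two-sided with limma 3.58.1 in R 4.3.3 (lmFit, eBayes with trend), adjusted by Benjamini-Hochberg and called below 0.05. The fraction contrasts and their difference took the pool as fixed (6 residual degrees of freedom). Comparisons of odor with vehicle inside a fraction took it as random (correlation 0.164, with 12 residual degrees of freedom). Errors in the text are SE for differences and SD for signals. Scripts were tested on simulated data, and figures were drawn with matplotlib 3.10.9.

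The receptors, marker lists and rules were chosen with earlier results of these data known. In each fraction contrast the text names the 10 largest called differences of each direction with 1 sign in all 4 pools. In the difference of contrasts it names the 10 smallest p, and inside a fraction the 3 smallest p of each direction. Olfr1022, Olfr1034, Olfr1093, S100a5 and Omp were always named. A further part of the rule, on protein subfamilies, was not run. Receptors named beyond this rule, among them Olfr1018, Olfr1026, Olfr1036, Olfr1044, Olfr1047, Olfr1058, Olfr1076, Olfr1079, Olfr1118, Olfr1122 and Olfr1155, and the regulators named, were picked once their values had been seen.

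Pairing was checked by correlating deviations from group means over all genes. For the fractions of a pool the correlation was 0.116 to 0.192 (odor) and 0.136 to 0.341 (vehicle). For odor and vehicle pools that share a number it was 0.0787 to 0.410 between arrays titled GFP+, with 3 of 4 pairs above 0.1, and 0.198 to 0.279 between arrays titled GFP-, with 4 of 4. The array of the same number was the best match in 3 of 4 pairs titled GFP+ and in 4 of 4 titled GFP-. For the 2 fractions of a pool, the array of the same pool was the best match in 4 of 4 pairs in each treatment. These values did not settle whether the numbers pair the pools. The main fits did not use the number as a block. Fits with that block are given beside them for each comparison of odor with vehicle. The smallest SD of log2 differences between any 2 arrays was 0.359, and no array was a duplicate.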

Additional observations from a re-analysis of the deposited data

Results flagged for a closer look

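In 90 groups of 4 values examined for the named receptors, 7 held a value set apart from the other 3 by a gap above Dixon's critical value. Chance flags about 1 in 20 groups of this size.

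Among pool differences between fractions, Olfr1022 had -1.79 in odor replicate 2, where the nearest other pool had -2.20. Olfr1042 had 5.85 in odor replicate 3 (nearest 6.53), and Olfr1019 had 3.24 in vehicle replicate 4 (nearest 4.35). All 3 kept the sign of the other pools.

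Among log2 signals, Olfr1015 had 8.98 in odor replicate 4 titled GFP+ (nearest 7.62), which put that array at the level of the vehicle arrays. Olfr1034 had 11.2 in vehicle replicate 3 titled GFP- (nearest 12.0), and Olfr1093 had 10.8 in vehicle replicate 2 titled GFP- (nearest 9.58). Olfr1136 had 4.51 in vehicle replicate 3 titled GFP+ (nearest 3.78), below the control median.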

How the results depend on the processing

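In the fraction contrasts the counts of receptors called stayed within 1.5 times of the reported ones under median centring, cyclic loess, mature neuron centring, omission of genes below the 30th percentile, the mean of features, no variance trend and other treatments of the pool. The odor median of -1.52 became -1.89 under median centring, -1.24 under mature neuron centring and -1.72 with dim genes left out. With single odor pools left out, 16 to 18 receptors rose and 66 to 71 fell (median -1.66 to -1.44), and with single vehicle pools left out 16 to 17 rose and 64 to 70 fell (median -1.43 to -1.09). Without the pool block, 17 rose and 69 fell in odor pools and 16 rose and 66 fell in vehicle pools. Median centring called 75.9% of all genes in odor and 73.6% in vehicle pools, against 27.5% and 26.0%, with 16 receptors higher and 81 lower in odor and 16 and 80 in vehicle pools.

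With the replicate number as a block, the count called was 1 higher in arrays titled GFP- (Olfr1022; 15 of all genes), 1 higher for pool means (Olfr1034; 11 of all genes) and 0 in arrays titled GFP+ and in the difference of contrasts. With single pools left out, 0 to 1 receptors were called higher in arrays titled GFP- (1 without odor replicate 4) and 0 in each other comparison of odor and vehicle; the medians there were -0.121 to 0.0479 in arrays titled GFP+, -0.0617 to 0.0874 in arrays titled GFP- and -0.110 to 0.106 for the difference of contrasts. The cause of these changes was not tested. No result past the threshold changed direction in these settings, while the medians near 0 took either sign. The 4 arrays of a group and signals near background limit what can be said of dim receptors.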
